A study of Homo sapiens with 6 samples.

Results

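Genes of the NF-kB pathway and of inflammatory cytokines were described in hTert-HME1 cells, a telomerase-immortalised mammary epithelial line of human origin. Of 37 genes named for this module (NF-kB subunits, their inhibitors, signalling adaptors, the interleukin 1 and interleukin 6 families and target genes, without chemokines), 34 had a mean of at least 10 for 2 raised to the value over the 6 libraries and are the members, out of 14763 genes past that filter and 57820 gene rows. No member passed the filter through 1 group alone, since all 34 had a mean above 10 in each group. The mean was 38.5 for TRAF1, the member closest to the filter, and 8.7 for IL1RN, 6.2 for TNFAIP2 and 3.4 for TNF, which fell below it. TNF, the archetypal activator of the pathway, was therefore not tested, and neither was the interleukin 1 receptor antagonist IL1RN, whose values were 3.76 and 3.59 in the libraries without EGF, 2.69 in the library labelled as BRCA2 siRNA with EGF and 2.57, 2.55 and 3.06 in controls A, B and P4.

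Cells received an siRNA to BRCA2, which encodes a protein of DNA repair by homologous recombination, or a control siRNA. After a recovery period they were cultured in a medium for mammary epithelium that contained EGF, which binds the receptor EGFR, or lacked it, and mRNA of 6 libraries was sequenced. There were 2 libraries of BRCA2-2 siRNA without EGF at passage 6 (A and B), 1 library of BRCA2-2 siRNA with EGF at passage 4, and 3 libraries of control-1 siRNA with EGF, at passage 6 (A and B) and passage 4 (P4). The libraries without EGF are so named by their media label, since their titles carry EGF with no sign. All come from the 1 line and the 1 siRNA against BRCA2, and the control without EGF named in the series design was not analysed here, so siRNA and medium differ together in the libraries without EGF.

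NF-kB proteins are dimers of related subunits that inhibitors of the IkB family hold in the cytoplasm. Signals from interleukin 1, TNF or Toll-like receptors pass through adaptors and ubiquitin ligases to the IkB kinase complex, which marks the inhibitors for destruction, and the freed dimers then bind kappa B sites in promoters and enhancers. Many of their targets are inhibitors of the same pathway, among them NFKBIA and TNFAIP3, so that the response limits itself. In mammary and other epithelia the pathway is known for inducing cytokines, adhesion molecules and survival genes.

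The promoters of several members hold kappa B matches, and 4 of these are shown. Those of TNFAIP3, BIRC3 and IL6 were taken because these genes also differed by at least 1 on the log2 scale between the 2 libraries without EGF. TRAF1 and SOD2 differed by at least 1 as well, by 1.58 and 1.45. The window searched for each held 0 matches, other starts were not searched, and RELB had no promoter to search. The promoter of IL32 was taken because this gene differed most among the controls of the members past a test. The windows run from 250 bases before to 50 bases after the gene start, are given on the gene's strand from RefSeq (build GRCh38.p14, matched by symbol, whereas the expression values rest on hg19), and carry in capitals each match to the kappa B consensus on either strand.
TNFAIP3 (chr6:137867009-137867308, + strand): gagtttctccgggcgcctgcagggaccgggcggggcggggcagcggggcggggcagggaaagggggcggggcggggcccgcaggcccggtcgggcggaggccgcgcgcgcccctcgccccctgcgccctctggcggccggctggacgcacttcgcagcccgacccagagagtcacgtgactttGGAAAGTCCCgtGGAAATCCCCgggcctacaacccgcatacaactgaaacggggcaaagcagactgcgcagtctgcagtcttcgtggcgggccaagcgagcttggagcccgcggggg
BIRC3 (chr11:102317234-102317533, + strand): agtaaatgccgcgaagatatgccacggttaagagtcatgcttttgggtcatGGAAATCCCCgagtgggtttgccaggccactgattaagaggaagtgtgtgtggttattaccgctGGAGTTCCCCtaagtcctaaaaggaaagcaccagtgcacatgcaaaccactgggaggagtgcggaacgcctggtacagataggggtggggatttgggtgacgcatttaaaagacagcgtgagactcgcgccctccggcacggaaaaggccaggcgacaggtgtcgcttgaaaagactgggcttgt
IL6 (chr7:22726950-22727249, + strand): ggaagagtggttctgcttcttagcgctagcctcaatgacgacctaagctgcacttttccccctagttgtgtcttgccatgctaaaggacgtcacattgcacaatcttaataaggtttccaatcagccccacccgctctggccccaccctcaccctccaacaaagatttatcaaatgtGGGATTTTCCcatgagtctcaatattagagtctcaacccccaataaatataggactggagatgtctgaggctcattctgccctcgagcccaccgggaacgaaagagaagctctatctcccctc
IL32 (chr16:3065153-3065452, + strand): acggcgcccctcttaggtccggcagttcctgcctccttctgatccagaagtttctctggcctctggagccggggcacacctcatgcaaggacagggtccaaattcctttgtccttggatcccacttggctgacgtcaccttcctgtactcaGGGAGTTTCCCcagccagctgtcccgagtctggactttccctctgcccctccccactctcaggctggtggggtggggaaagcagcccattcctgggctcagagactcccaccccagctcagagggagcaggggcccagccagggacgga
In TNFAIP3 the matches lie at -67 to -58 and -55 to -46 from the start, and in IL6 the match lies at -73 to -64. In IL32 a match on each strand overlaps by all but 1 base.

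RefSeq promoters were found for 29 of the 34 members, and RELB, NFKBIE, IL18, LIF and CSF3 are named only. Of these 29 promoters 9 held the kappa B consensus (31.0%), those of NFKB1, REL, NFKBIA, NFKBIZ, BCL3, TNFAIP3, BIRC3, IL6 and IL32, against 2075 of 35116 promoters of the same length in the table (5.9%). Of 52 promoters of further pathway genes 8 held it (15.4%). The members were picked as genes and targets of this pathway, so their share describes the choice of list. These counts describe letters in a window and not binding. For 24 of the 29 members the last 30 bases of the window lay in a GENCODE 29 transcript of the gene. Other starts of the members were not searched.

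Values below are the authors' normalised log2 values, so a difference of 1 is a doubling, and levels are not compared between genes because the values are not per length. Because the depth of the libraries is unknown, values carry no counting interval. BRCA2 was at 11.15 and 10.89 in libraries A and B without EGF, at 10.88 in the library labelled as BRCA2 siRNA with EGF, and at 11.25, 11.24 and 10.19 in controls A, B and P4. The library labelled as BRCA2 siRNA with EGF thus exceeded the control of its own passage, so its label is not borne out by the targeted gene. Directions that rest on either passage 4 library therefore hold by label only. The 2 libraries without EGF lay below controls A and B but above control P4, with a mean of 11.02 against 10.89 over the 3 controls. BRCA2 thus does not clearly bear out their siRNA label either. Controls A and B were much closer to each other than the pair without EGF, with an SD of the difference over tested genes of 0.119 against 0.308. The labels call A and B biological replicates without saying what was separate, so the p-values reflect how far these libraries differ, in part perhaps for technical reasons, and a group of 1 library takes its spread from the others.

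Of 13 epithelial markers 12 passed the filter and EPCAM did not, while 0 of 14 haematopoietic markers passed, 5 of them at 0 in every library. Summed as 2 raised to the value, the haematopoietic markers came to 25 in both libraries without EGF, 25 in the library labelled as BRCA2 siRNA with EGF and 23 to 25 in controls. Of 10 fibroblast markers 8 passed, and the list summed to 6907 to 7088 without EGF, 4373 in the library labelled as BRCA2 siRNA with EGF and 2248 to 2621 in controls, and the epithelial markers to 677348 to 742047, 401650 and 445784 to 456264. Of 5 endothelial markers 4 were matched and 2 passed, with CDH5 at 0 in every library, and their sums were 592 and 781 in libraries A and B without EGF, 373 in the library labelled as BRCA2 siRNA with EGF, and 285, 313 and 1102 in controls A, B and P4. The sum is carried by KDR, at 10.07 in control P4 against 8.04 and 8.19 in controls A and B. KDR was at 9.14 and 9.54 in libraries A and B without EGF. TEK, also past the filter, was highest in library B without EGF, at 5.16 against 4.52 in control P4. The part of the endothelial list in the differences between control passages or without EGF was not tested. The fibroblast and epithelial sums were highest in the libraries without EGF, but single markers differed in direction. COL1A1, COL3A1, FAP, KRT5 and KRT14 were highest there. LUM and DCN were highest in the library labelled as BRCA2 siRNA with EGF, and ITGA6 and TERT were lower without EGF than in controls A and B. The part of fibroblast and epithelial markers in the differences given below for the libraries without EGF was not tested. A change in the number of cells of a type and a change of RNA per cell cannot be told apart in these bulk libraries.

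The members differed widely between the 2 libraries without EGF. The SD of the difference B minus A was 0.623 over the members and 0.308 over all tested genes. Between controls B and A it was 0.172 and 0.119, and between the 2 passage 4 libraries, which belong to different groups, 0.645 and 0.397. Replicate B without EGF exceeded replicate A for 27 of the 34 members, with a median difference of 0.58, whereas over all 14763 tested genes the median was -0.0033 and 49.3% of genes were higher in B. A difference of at least 1 between these 2 libraries was found for 6 members (IL6, TRAF1, SOD2, BIRC3, RELB and TNFAIP3), all higher in B, and for 0.867% of all tested genes. A difference of at least 0.5 was found for 24 of 34 members and for 9.16% of tested genes. With 1 library on each side there is no test of this difference. Fibroblast markers also differed between the same 2 libraries gene by gene, LUM being 0.53 higher and THY1 0.64 lower in B, and the part of other cell types in the difference was not tested.

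**Figure D1:**
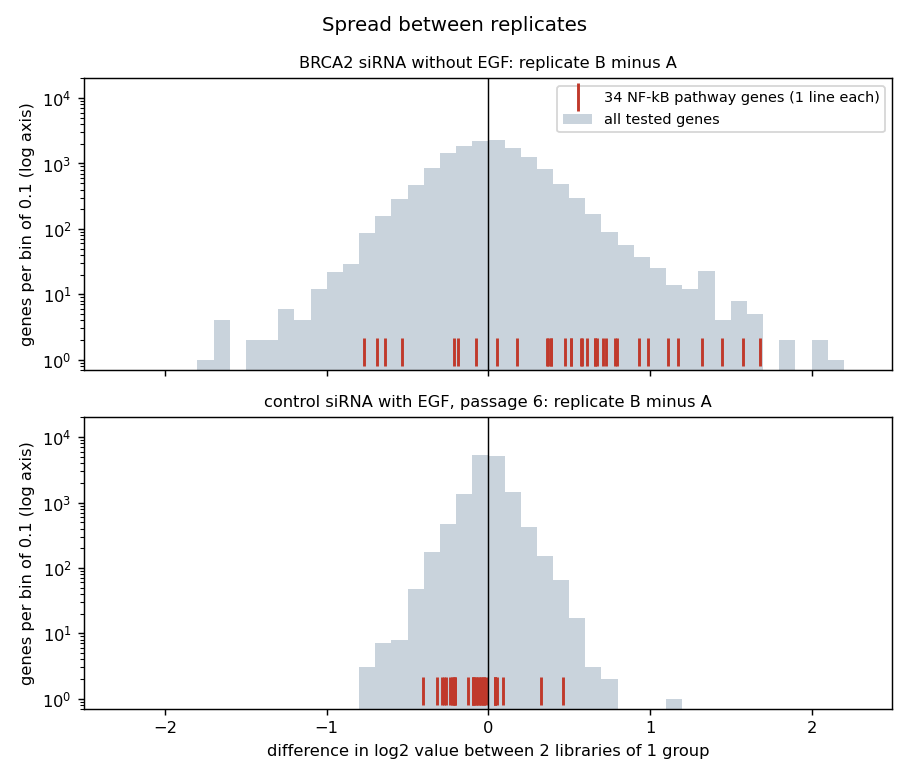
Difference in log2 value between replicates B and A (x axis) of the group without EGF (top) and of the passage 6 controls (bottom). Grey bars count all tested genes per bin of 0.1 on a log axis, and each red line is 1 of the 34 members. In the top panel 27 red lines lie right of 0 with a median of 0.58, and in the bottom panel 26 lie left of 0 with a median of -0.08, while 49.4% of all tested genes lie right of it.

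The 9 members with a kappa B consensus match in the promoter window were all higher in B than in A without EGF, with a median of 0.71. The 20 members with no match in the window were higher in B for 14, with a median of 0.42. Among all tested genes with a promoter in the table, 54.2% of the 681 with a match and 49.4% of the 9780 without one were higher in B, with medians of 0.02 and -0.003. The 5 members with no promoter are outside these counts. Their differences B minus A were 1.17 for RELB, 0.51 for NFKBIE, 0.51 for IL18, 0.67 for LIF and -0.69 for CSF3. The members were picked as genes and targets of the pathway, and the part of kappa B sites in the difference was not tested.

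Among the controls, library P4 lay apart from A and B. Of the 34 members, 24 were lower in the passage 6 controls than in control P4, with a median difference of -0.55, so that 10 were above 0. Over all tested genes the median was -0.03, with 47.6% above 0. The library labelled as BRCA2 siRNA with EGF held the highest value of 12 members and replicate B without EGF that of another 12, while control A held the highest of 0 and control B of 1. The lowest value was in control B for 11 members and in replicate A without EGF for 9. Such counts were not made over all tested genes, so they are not read as a trait of the members.

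**Figure D2:**
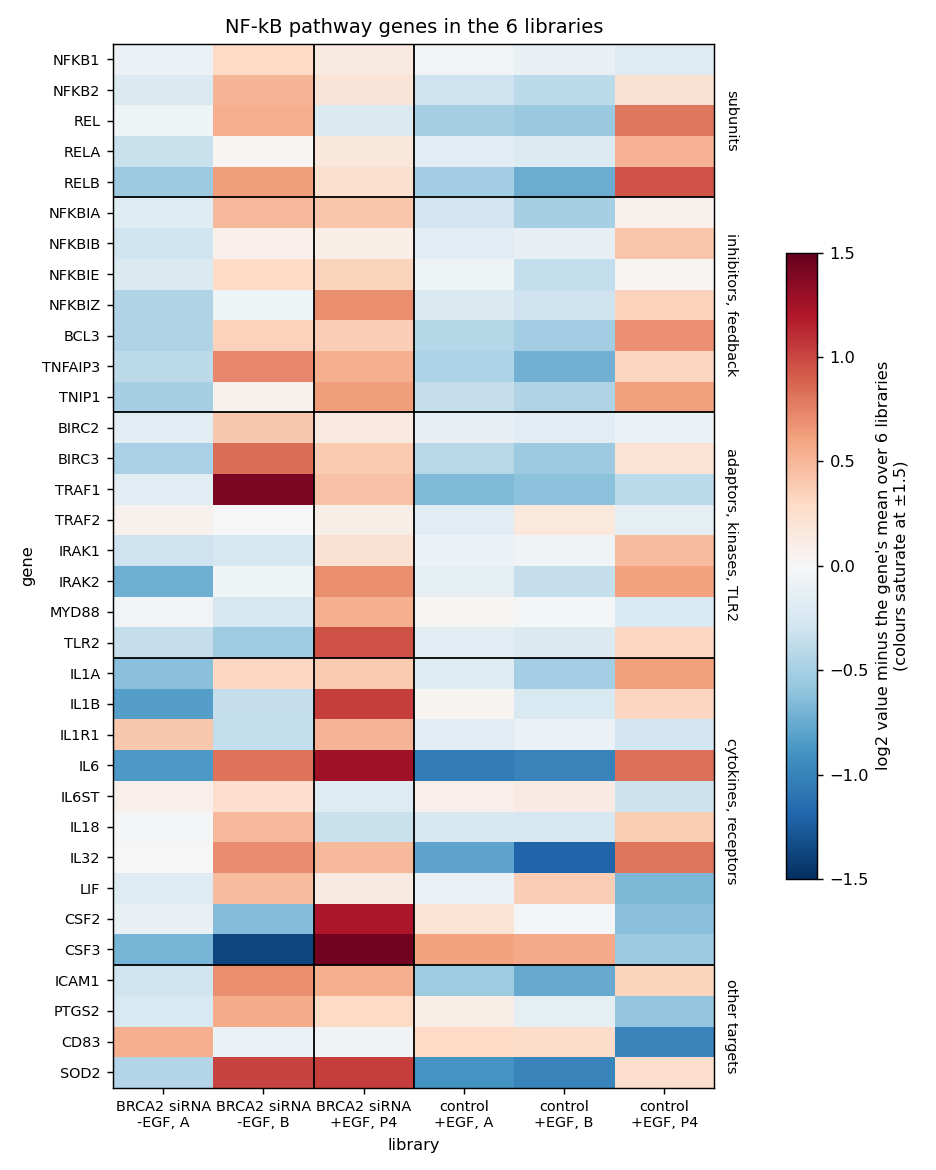
Log2 value of each of the 34 members (rows, ordered by role) minus the gene's own mean over the 6 libraries, in each library (columns). Red is above and blue below that mean, and colours saturate at 1.5. Over all tested genes the median of this measure lies between -0.02 and 0.03 in each library. The counts that follow were made for the members only. Of the 34 members, 23 are above their mean in replicate B without EGF and 4 in replicate A, 30 in the library labelled as BRCA2 siRNA with EGF, and 7, 5 and 22 in controls A, B and P4.

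Against this spread, few members passed the tests between groups, each fitted with limma over all genes. In the first comparison, the 2 libraries without EGF against all 3 controls, 0 of 34 members passed, and 146 of 14763 genes did (0.989%). At an unadjusted p below 0.05, 1 member was higher and 2 were lower, against 8.57% and 8.60% of all tested genes. Both libraries lay above all 3 controls for 1 member (TRAF1) and below them for 4 (IRAK1, TLR2, IL1B and CSF3), against 18.1% and 23.9% of all tested genes. The median difference of the members was 0.20, with 22 above 0, and that of all tested genes was -0.03, with 46.1% above 0. With replicate B without EGF left out the members' median was -0.06, with 14 above 0, and without its replicate A it was 0.42.

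Restricting the contrast to passage 6, 2 libraries against controls A and B in a fit in which passage also separates the groups, 1 of 34 members passed, CSF3, which fell, and 950 of 14763 genes did (6.44%, and 2.88% lower). At an unadjusted p below 0.05 there were 3 members higher and 2 lower, against 13.8% and 17.7% of all tested genes. Without overlap, 10 members were higher and 6 lower, against 29.2% and 35.7%. The median difference was 0.19 with 26 of 34 members above 0, and -0.02 with 47.3% above 0 over all tested genes. Without replicate B the median was -0.01 with 16 above 0, and without replicate A it was 0.50 with 25 above 0.

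Controls themselves were compared between passages, the 2 libraries at passage 6 against control P4. The spread came from controls A and B and from the 2 libraries without EGF. With control A or control B left out it comes from the pair without EGF alone. Here 6 of 34 members passed, 5 lower and 1 higher, and 2963 of 14763 genes did (20.1%, with 12.4% lower and 7.71% higher). The share of members was thus near that of all genes. Those that fell at passage 6 were REL, RELA, TNIP1, IRAK1 and IL32, and CD83 rose. All 6 calls were lost when either control A or control B was left out, where 0 members and 0 genes passed. RELA and TNIP1 lay close to the threshold and were also lost with each library centred on its median.

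The library labelled as BRCA2 siRNA with EGF was set against the 3 controls, with 0 of 34 members and 0 of 14763 genes past the limma test (0%). At an unadjusted p below 0.05, 5 members were higher (NFKBIZ, MYD88, TLR2, IL1B and CSF2) and 0 lower, against 1.52% of all tested genes higher and 1.27% lower. It lay above all 3 controls for 20 members and below all 3 for 1, IL18, against 19.6% and 22.5% of all tested genes. The difference was above 0 for 31 members, with a median of 0.56, against 48.6% of all tested genes. Against control P4 alone, the control of the same passage, it was above 0 for 24 members, with a median of 0.23, against 45.7% of tested genes, and 3 members differed by at least 1 (CSF3 by 1.99, CSF2 by 1.84 and REL by -1.01), against 2.21% of tested genes.

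Between the 2 libraries without EGF and the library labelled as BRCA2 siRNA with EGF, which also differ in passage, 0 of 34 members passed and 30 of 14763 genes did (0.203%). At an unadjusted p below 0.05, 6 members were lower (NFKBIZ, MYD88, TLR2, IL1B, CSF2 and CSF3) and 0 higher, against 7.69% of all tested genes lower and 8.72% higher. The difference was above 0 for 6 members, against 48.0% of tested genes. Without control P4, which leaves the difference itself as it is and changes only the spread, 7 members passed, all lower (20.6%), near the share of all genes, 2404 of 14763 (16.3%). With a passage term 2 did, CSF2 and CSF3, and 569 genes in all (3.85%), and the members' median was then 0.11 in place of -0.31.

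**Figure D3:**
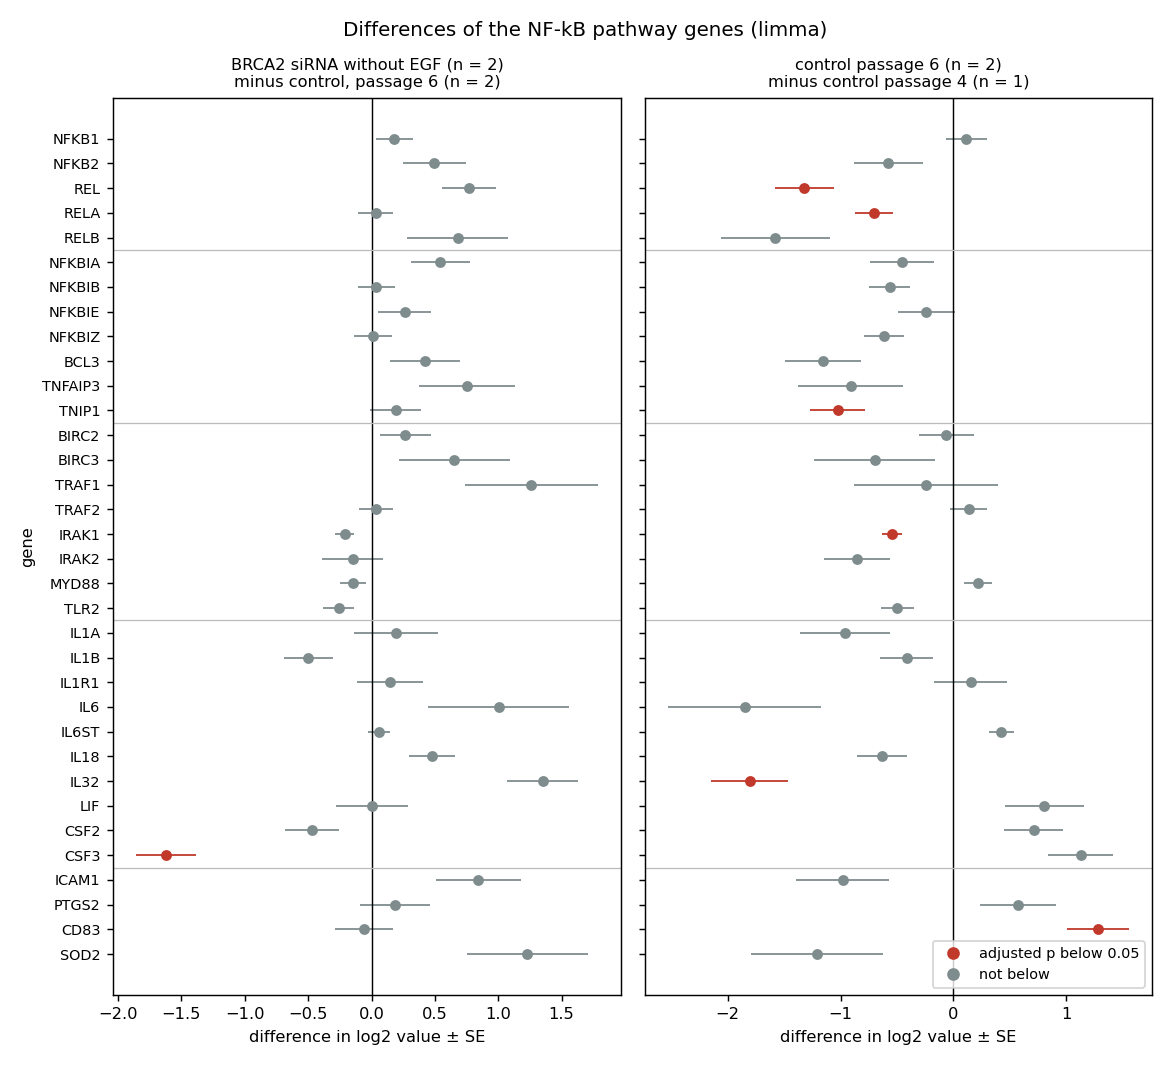
Difference in log2 value ± standard error (limma) of each member, for the libraries without EGF minus controls at passage 6 (left) and for the controls at passage 6 minus passage 4 (right). Red marks an adjusted p below 0.05. On the left CSF3 alone is red, at -1.62, and on the right REL, RELA, TNIP1, IRAK1 and IL32 are red below 0 and CD83 above 0.

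The subunits come first by role. REL encodes c-Rel, an activating subunit. REL was at 9.56 and 10.18 in libraries A and B without EGF, at 9.41 in the library labelled as BRCA2 siRNA with EGF, and at 9.13, 9.07 and 10.42 in controls A, B and P4. Both libraries without EGF lay above controls A and B but below control P4, and the difference at passage 6 was 0.77 ± 0.21 (standard error, limma adjusted p = 0.0924). Between passages, REL fell in the controls at passage 6 by 1.32 (limma adjusted p = 0.0367).

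RELB and NFKB2 form the dimer of the non-canonical pathway. RELB was at 7.70 and 8.87 in libraries A and B without EGF, 8.48 in the library labelled as BRCA2 siRNA with EGF, and 7.72, 7.50 and 9.19 in controls A, B and P4. NFKB2 was at 10.76 and 11.48 without EGF, 11.17 in the library labelled as BRCA2 siRNA with EGF, and 10.66, 10.59 and 11.20 in controls A, B and P4. For both genes replicate A without EGF lay near controls A and B, and replicate B near control P4. The passage 6 differences were 0.68 ± 0.40 for RELB and 0.50 ± 0.25 for NFKB2 (standard error, limma adjusted p = 0.298 and 0.240).

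RELA and NFKB1 form the classical dimer. RELA was at 10.45 and 10.81 without EGF, 10.95 in the library labelled as BRCA2 siRNA with EGF, and 10.61, 10.58 and 11.30 in controls A, B and P4. It fell at passage 6 in the controls by 0.71 (limma adjusted p = 0.0491), and its difference without EGF at passage 6 was 0.03 ± 0.14 (standard error, limma adjusted p = 0.882). NFKB1 was at 11.45 and 11.84 without EGF, 11.69 in the library labelled as BRCA2 siRNA with EGF, and 11.51, 11.43 and 11.35 in controls A, B and P4. It had the smallest range of the 5 subunits over the 6 libraries, 0.49, whereas RELB had 1.69.

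Among inhibitors and feedback genes, TNFAIP3 encodes A20, a ubiquitin-editing enzyme that shuts off the pathway. TNFAIP3 was at 11.51 and 12.62 in libraries A and B without EGF, 12.45 in the library labelled as BRCA2 siRNA with EGF, and 11.44, 11.18 and 12.22 in controls A, B and P4. Replicate B without EGF was the highest of all 6 libraries and control B the lowest. NFKBIA, the IkB alpha inhibitor, was at 10.60 and 11.26 without EGF, 11.19 in the library labelled as BRCA2 siRNA with EGF, and 10.49, 10.28 and 10.84 in controls A, B and P4. At passage 6 the differences were 0.75 ± 0.38 for TNFAIP3 and 0.54 ± 0.23 for NFKBIA (standard error, limma adjusted p = 0.240 and 0.193), with no overlap between the groups for either gene. The matches in the TNFAIP3 promoter are those printed above, and that of NFKBIA reads GGAAATTCCC at -81 to -72.

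TNIP1, which encodes a partner of A20, was at 11.92 and 12.50 without EGF, 13.06 in the library labelled as BRCA2 siRNA with EGF, and 12.07, 11.97 and 13.04 in controls A, B and P4. Both passage 4 libraries were thus the highest, and TNIP1 fell at passage 6 in the controls by 1.03 (limma adjusted p = 0.0495). BCL3, an IkB family protein that acts in the nucleus with NFKB2 and NFKB1 products, was at 7.15 and 7.95 without EGF, 7.98 in the library labelled as BRCA2 siRNA with EGF, and 7.18, 7.09 and 8.29 in controls A, B and P4. NFKBIB, NFKBIE and NFKBIZ, of the same family, had passage 6 differences between 0.01 and 0.26, none past the test. NFKBIZ was highest in the library labelled as BRCA2 siRNA with EGF, at 11.02, against 10.10, 10.01 and 10.67 in controls A, B and P4.

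Of the adaptors, TRAF1 and BIRC3 are themselves known targets of NF-kB and belong to the same receptor complexes, BIRC3 being a ubiquitin ligase. TRAF1 was at 4.89 and 6.47 in libraries A and B without EGF, 5.50 in the library labelled as BRCA2 siRNA with EGF, and 4.39, 4.44 and 4.66 in controls A, B and P4. It was the 1 member with both libraries without EGF above all 3 controls, by 1.18 ± 0.45 (standard error, limma adjusted p = 0.271), and the difference was 0.39 without replicate B and 1.97 without replicate A. TRAF1 had the lowest mean of the members. BIRC3 was at 11.27 and 12.59 without EGF, 12.15 in the library labelled as BRCA2 siRNA with EGF, and 11.34, 11.22 and 11.98 in controls A, B and P4. Its difference at passage 6, 0.65 ± 0.44 (standard error, limma adjusted p = 0.354), rested on replicate B, since without it the difference was -0.0056.

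BIRC2, the paralogue of BIRC3, was at 11.43 and 12.01 without EGF, 11.74 in the library labelled as BRCA2 siRNA with EGF, and 11.48, 11.43 and 11.52 in controls A, B and P4. IRAK1, a kinase downstream of interleukin 1 and Toll-like receptors, was at 11.34 and 11.39 without EGF, 11.88 in the library labelled as BRCA2 siRNA with EGF, and 11.56, 11.60 and 12.12 in controls A, B and P4. It was lower in both libraries without EGF than in every control, and fell in the controls at passage 6 by 0.54 (limma adjusted p = 0.0274). For the receptor TLR2 the values were 5.51 and 5.32 without EGF, 6.82 in the library labelled as BRCA2 siRNA with EGF, and 5.70, 5.65 and 6.17 in controls A, B and P4. TLR2 was thus also lower without EGF than in every control, by 0.42 on average without passing the limma test (adjusted p = 0.362). TRAF2, IRAK2 and MYD88 had passage 6 differences between -0.15 and 0.04, none past the test.

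**Figure D4:**
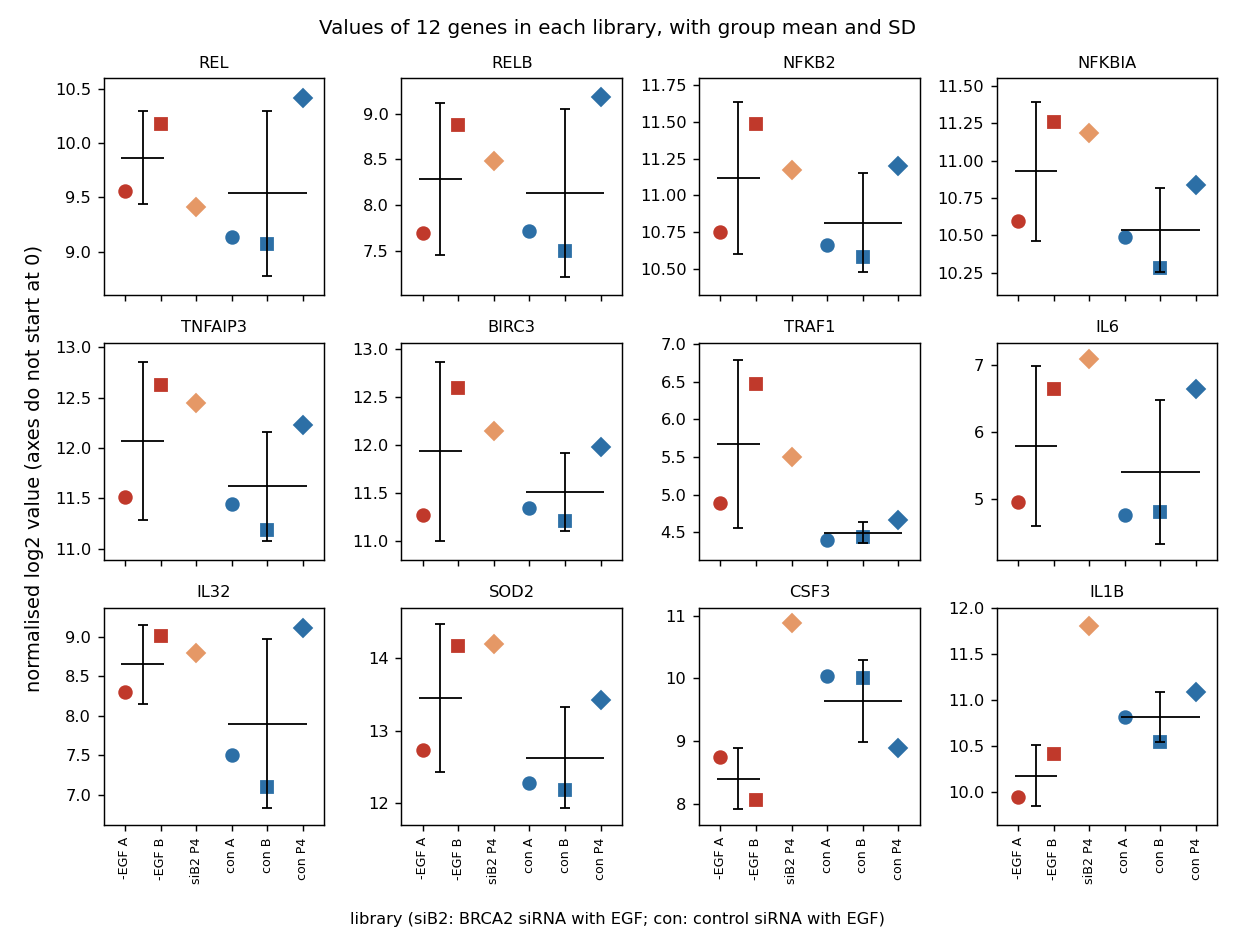
Normalised log2 value of 12 members in each library, with libraries without EGF in red, the library labelled as BRCA2 siRNA with EGF in orange and controls in blue. Horizontal lines and bars are the mean and SD of the group without EGF (n = 2) and of the controls (n = 3), and each y axis has its own range. For IL6 the values run from 4.77 in control A to 7.08 in the library labelled as BRCA2 siRNA with EGF, and for CSF3 from 8.06 in replicate B without EGF to 10.88 in the library labelled as BRCA2 siRNA with EGF.

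Cytokines went in different directions. CSF3, the granulocyte colony-stimulating factor G-CSF, was at 8.74 and 8.06 in libraries A and B without EGF, 10.88 in the library labelled as BRCA2 siRNA with EGF, and 10.04, 10.01 and 8.89 in controls A, B and P4. Both libraries without EGF lay below every library with EGF. At passage 6 CSF3 fell to 8.40 ± 0.49 without EGF, against 10.02 ± 0.02 in controls (SD, n = 2 each), a difference of -1.62 ± 0.23 (standard error, limma adjusted p = 0.0328). The call was lost without control A (limma adjusted p = 0.122), without control B (0.115) and with those controls averaged (0.121), with the difference between -1.64 and -1.61. Against all 3 controls the difference was -1.24 ± 0.41 (standard error, limma adjusted p = 0.232). Control P4 was 1.13 below the passage 6 controls (limma adjusted p = 0.0548), so CSF3 also differed among the controls.

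CSF2, the granulocyte and macrophage factor GM-CSF, was at 6.74 and 6.20 without EGF, 8.07 in the library labelled as BRCA2 siRNA with EGF, and 7.05, 6.83 and 6.23 in controls A, B and P4. Unlike CSF3, it overlapped between the libraries without EGF and control P4. IL1B, the inflammasome-processed interleukin 1 beta, was at 9.94 and 10.42 without EGF, 11.81 in the library labelled as BRCA2 siRNA with EGF, and 10.81, 10.54 and 11.09 in controls A, B and P4. It was lower without EGF than in every control, by 0.64 ± 0.22 without passing (standard error, limma adjusted p = 0.245). For CSF2, CSF3 and IL1B the library labelled as BRCA2 siRNA with EGF was the highest of the 6, and the libraries without EGF differed from it by -1.59, -2.48 and -1.63 on the log2 scale without passing (limma adjusted p = 0.197, 0.168 and 0.112).

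IL6, a cytokine with a kappa B match next to its start, was at 4.95 and 6.63 in libraries A and B without EGF, 7.08 in the library labelled as BRCA2 siRNA with EGF, and 4.77, 4.81 and 6.64 in controls A, B and P4. Replicate A without EGF thus resembled controls A and B, and replicate B resembled control P4. Its passage 6 difference was 1.003 ± 0.56 (standard error, limma adjusted p = 0.278), and 0.16 without replicate B. In the controls IL6 was lower at passage 6 by 1.85 ± 0.68 (standard error, limma adjusted p = 0.112).

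IL32, a cytokine that induces other inflammatory cytokines, was at 8.29 and 9.01 without EGF, 8.79 in the library labelled as BRCA2 siRNA with EGF, and 7.50, 7.10 and 9.11 in controls A, B and P4. At passage 6 the groups did not overlap, with a difference of 1.35 ± 0.28 that did not pass (standard error, limma adjusted p = 0.0601). Control P4 exceeded both libraries without EGF, and IL32 fell in the controls at passage 6 by 1.81 (limma adjusted p = 0.0346). IL1A, the other interleukin 1, was at 11.02 and 11.96 without EGF, 12.03 in the library labelled as BRCA2 siRNA with EGF, and 11.45, 11.13 and 12.25 in controls A, B and P4. IL1R1, IL6ST, IL18 and LIF had passage 6 differences between 0.01 and 0.48, none past the test.

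Other targets included SOD2, the mitochondrial superoxide dismutase. Its row was named through GENCODE 29 only, because the reference table lacked a symbol for its identifier, so its values are held as uncertain. SOD2 was at 12.73 and 14.17 in libraries A and B without EGF, 14.20 in the library labelled as BRCA2 siRNA with EGF, and 12.27, 12.18 and 13.43 in controls A, B and P4. The passage 6 difference was 1.23 ± 0.48 (standard error, limma adjusted p = 0.162), and it was 0.51 without replicate B and 1.95 without replicate A. ICAM1, an adhesion molecule for leukocytes, was at 8.52 and 9.51 without EGF, 9.36 in the library labelled as BRCA2 siRNA with EGF, and 8.28, 8.06 and 9.15 in controls A, B and P4. Its passage 6 difference was 0.84 ± 0.34 (standard error, limma adjusted p = 0.171). For SOD2 and ICAM1, as for TNFAIP3 and NFKBIA, both libraries without EGF exceeded controls A and B, while control P4 exceeded replicate A without EGF.

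PTGS2, the inducible cyclooxygenase, was at 12.59 and 13.37 without EGF, 13.12 in the library labelled as BRCA2 siRNA with EGF, and 12.91, 12.68 and 12.22 in controls A, B and P4. CD83, a surface glycoprotein best known from dendritic cells, was at 7.92 and 7.28 without EGF, 7.32 in the library labelled as BRCA2 siRNA with EGF, and 7.67, 7.65 and 6.37 in controls A, B and P4. Control P4 was the lowest library for both genes, against the pattern of most members. CD83 rose in the controls at passage 6 by 1.28 (limma adjusted p = 0.0419), and its passage 6 difference without EGF was -0.06 ± 0.23 (standard error, limma adjusted p = 0.873).

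Of 84 further genes of the pathway, 66 were matched and past the filter. In the comparison without EGF at passage 6, 5 rose and 3 fell by limma, of 66 (12.1%, against 6.44% of all tested genes), with a median difference of 0.11 against -0.02. TLR4, the lipopolysaccharide receptor, was at 5.28 and 4.99 without EGF, 6.22 in the library labelled as BRCA2 siRNA with EGF, and 7.26, 7.51 and 5.54 in controls A, B and P4, a passage 6 difference of -2.25 ± 0.16 (standard error, limma adjusted p = 0.0087). It also rose in the controls at passage 6 by 1.85 (limma adjusted p = 0.0231), so the fall holds against controls A and B, whereas control P4 lay close to the libraries without EGF. IER3 (-0.58), a stress-response gene, and CHUK (-0.53), which encodes an IkB kinase subunit, fell as well. The complement component C3 (1.23), the macrophage growth factor CSF1 (1.08), the acute phase genes SAA1 (1.06) and SAA2 (0.72) and the RNA sensor TLR3 (0.99) rose, with limma adjusted p between 0.0199 and 0.0453 for these 7 genes. The library labelled as BRCA2 siRNA with EGF exceeded libraries A and B without EGF for C3 (13.57 against 13.14 and 13.47). It also did for SAA1 (11.31 against 11.20 and 10.84) and SAA2 (6.34 against 5.07 and 4.87). That library lay below both for CSF1 (9.60 against 10.30 and 10.72) and TLR3 (5.39 against 6.80 and 6.90). SAA1 and SAA2 are near-identical, so reads could be split between them in counting. All 8 calls were lost without control A, without control B and with those controls averaged. Against all 3 controls 0 of these 66 genes passed, against 0.989% of all genes. Between the control passages 5 rose and 12 fell (25.8%, against 20.1% of all genes), in a comparison where 0 genes of the whole table passed once control A or control B was left out.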

How the data were processed

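The authors deposited 1 table of normalised log2 values per Ensembl gene and library, with 57820 rows and values from -1.98 to 19.93. Per the submitters' processing notes, TopHat2 2.0.11, DESeq2 and hg19 were used; which read counter, annotation and transformation were used is not given in the sources used here. A total of 25986 rows were 0 in all libraries and 0 rows in some libraries only, which a shrinking log transformation would give. Depth could not be recovered, so count models were not used. All 6 columns were matched by the names in the labels.

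Ensembl identifiers were given symbols from a reference table, with GENCODE 29 names for identifiers it lacks, which gave SOD2. Genes averaging 10 or more for 2 raised to the value were tested with limma 3.58.1 (R 4.3.3, two-sided, variance trend, robust prior), with Benjamini-Hochberg adjustment over all 14763 genes and a threshold of 0.05. One fit had 3 groups with 3 residual degrees of freedom. The other had 4 levels of siRNA, medium and passage with 2. The fit function was tested on simulated data. Members and lists were chosen with earlier results of these data known. Values per library are printed for all 5 subunits, for members past a threshold, and for the 3 members of each role with the largest passage 6 difference. NFKBIZ, TLR2, CSF2, IL1A, IL1B and IL1RN were added after their values were seen. Alternatives covered scaling, filters, a pseudocount of 10, the variance model, averaged controls, the replicate block, a passage term and each library left out.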

Additional observations from a re-analysis of the deposited data

How the results depend on the processing

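Counts are given as all genes first and members after. With no filter on low values, 87 genes passed without EGF against all controls, 18 against the library labelled as BRCA2 siRNA with EGF, 76 genes and 0 members at passage 6, and 0 genes and 0 members between the control passages; the cause was not tested. At a mean of at least 50 the first 2 counts were 94 and 13. With controls A and B averaged the 4 comparisons gave 37, 11, 46 and 0 genes, and 0 members in each, with fewer degrees of freedom by construction. Without variance trend and robust prior 56 genes passed against the library labelled as BRCA2 siRNA with EGF. With a passage term 950 genes and 1 member passed without EGF against the controls (959 and 1 with passage 6 libraries only, chosen after seeing the data), and 569 genes and 2 members against the library labelled as BRCA2 siRNA with EGF, where IL6 turned to 0.56.

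Leaving out 1 library, the ranges were 0 to 951 genes and 0 to 1 members without EGF against the controls, 0 to 2404 and 0 to 7 against the library labelled as BRCA2 siRNA with EGF, 42 to 8964 and 0 to 29 at passage 6, and 0 to 9849 and 0 to 29 between the control passages. The highest counts arise without control P4 in the first 2 comparisons, and in the other 2 without a replicate of the group without EGF, where the spread comes from controls A and B alone. Without replicate B the passage 6 difference turned for 12 of 34 members (NFKB1, RELA, NFKBIB, NFKBIZ, TNIP1, BIRC2, BIRC3, IL1A, IL6ST, LIF, PTGS2 and CD83). How many of all tested genes turned was not counted. With both replicates the differences of these 12 members ran in size from 0.0069 for LIF to 0.65 for BIRC3. Over the left-out libraries, the differences of 5 of them ran from -0.0157 to 0.37 for NFKB1, -0.15 to 0.22 for RELA, -0.0056 to 1.31 for BIRC3, -0.0241 to 0.55 for BIRC2 and -0.21 to 0.58 for PTGS2.

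The titles of the 2 passage 4 libraries carry no replicate letter, and the replicate block placed both with the A libraries. Block counts outside the passage 6 comparison rest on that placement. With this block, 6 genes passed without EGF against the controls and 0 against the library labelled as BRCA2 siRNA with EGF. At passage 6, 1232 genes (8.35%) and 3 members (8.82%) passed. Between the control passages 2721 genes (18.4%) and 12 members (35.3%) passed, and the members' median was -0.66 in place of -0.55. The differences A minus B of the group without EGF and of the passage 6 controls correlated at -0.17 over 14763 genes. They come from 2 pairs of libraries, which are too few to tell whether the letters mark something shared. With crossed letters as a replicate block, chosen after seeing the data, the counts were 10 genes against the library labelled as BRCA2 siRNA with EGF, 1795 genes and 6 members at passage 6, and 2375 genes and 10 members between the control passages. Of 49 gene results over these alternatives, 579 values kept direction and side of the threshold, 52 passed newly, 63 no longer passed and 6 turned.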
